A study of Mus musculus with 6 samples.

Results

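Protein tyrosine phosphatases and dual specificity phosphatases were examined in EL4 cells, an established mouse T lymphoma line, by RNA sequencing. The set holds every row of the count table whose mouse symbol begins with Ptpn or Dusp and a digit, or with Ptpr and a letter, which is 64 of the 51912 gene IDs. It contains 21 receptor tyrosine phosphatases, 17 non-receptor tyrosine phosphatases, 10 MAP kinase phosphatases and 14 atypical dual specificity phosphatases. Among the receptor genes Ptprv is annotated as a processed transcript and not as protein coding. The rule also takes 1 gene that encodes no phosphatase, Ptprcap, whose product binds the receptor phosphatase CD45, and 1 noncoding gene, Ptprtos, annotated antisense to Ptprt.

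Cells of both groups carried the wild-type label and grew in the same serum-containing medium. One group was exposed for 24 h to 10 µM RGFP966, a small molecule that inhibits HDAC3, an enzyme that removes acetyl groups from histones. The other was exposed to vehicle for the same time. Each group had 3 libraries, and the labels do not say whether these came from separate cultures, so the p-values here measure the spread between these libraries, which may be technical. RGFP966 libraries held 12935443 to 14768540 counts and vehicle libraries 15380331 to 16451017, a mean 13.3% lower with RGFP966 (two-sided exact permutation p = 0.1, the smallest that n = 3 against 3 allows).

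Tyrosine phosphatases remove phosphate from tyrosine residues and so oppose the Src family, JAK and receptor kinases. In T cells CD45 (Ptprc) also acts as an activator, because it removes the inhibitory phosphate from the kinase LCK, whereas SHP-1 (Ptpn6) and PEP (Ptpn22) restrain signals from the T cell receptor. MAP kinase phosphatases are dual specificity enzymes that remove both the threonine and the tyrosine phosphate from the activation loop of ERK, JNK and p38, and several are themselves induced by the kinases they switch off.

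Values are given in CPM, the count of a gene as a share of its library total after scaling for composition. Differences are log2 fold changes of RGFP966 over vehicle from edgeR's quasi-likelihood test, and a gene was called at a Benjamini-Hochberg adjusted p under 0.05 over all genes tested. The libraries bore the marks of T cells: the 12 T cell markers summed to 1792 to 1842 CPM with RGFP966 and 1761 to 1775 CPM with vehicle. Thy1 made up a large part of this, with means of 944 and 894 CPM, and Trbc1 had 10 counts in all. Of the 11 T cell markers tested 4 were called higher and 2 lower. The extraction text in the labels speaks of retinas, but the 12 retina markers summed to only 5.07 to 5.63 CPM with RGFP966 and 4.84 to 5.25 CPM with vehicle, and Crx, Gnat1 and Gngt1 had no count. The 7 B cell markers summed to 18.4 to 18.9 CPM with RGFP966 and 11.5 to 12.1 CPM with vehicle, most of it Cd22 (16.6 and 9.40 CPM), with Ms4a1 at 0. The 7 fibroblast markers summed to 54.7 to 57.4 CPM with RGFP966 and 44.3 to 45.5 CPM with vehicle, nearly all of it Pdgfra, with Col3a1 and Pdgfrb at 0. The part of these differences in the results below was not tested. The 8 myeloid markers summed to 9.31 to 9.85 and 8.41 to 10.3 CPM and the 6 erythroid markers to under 1 CPM, with overlapping groups. Counts of bulk RNA cannot tell fewer cells that express a gene from less RNA of it per cell.

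Of the 64 members 42 passed the low-count filter and were tested. With RGFP966, 5 of them rose and 5 fell, in all 10 of 42 or 23.8%. Over all 13484 genes tested the share called was 23.3%, with 11.4% higher and 11.9% lower, so the phosphatases were called about as often as genes in general. The median log2 fold change of the tested members was -0.01, and that of all tested genes -0.00. The 5 that rose were Ptprk, Ptprv and Ptprc among the receptor phosphatases, and Ptpn22 and Ptpn14 among the non-receptor phosphatases. The 5 that fell were the receptor gene Ptpre, the non-receptor genes Ptpn7 and Ptpn9, and the MAP kinase phosphatase genes Dusp7 and Dusp2. Without RGFP966 library 3 the counts were 3 rises and 3 falls, and without vehicle library 3 they were 5 and 3. With upper-quartile scaling, which called 1838 genes higher and 1270 lower in place of 1543 and 1602, the members numbered 6 and 5. In 20 of the 42 tested members (47.6%) all libraries of one group lay on the same side of the other, against 36.3% of all tested genes.

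**Figure D1:**
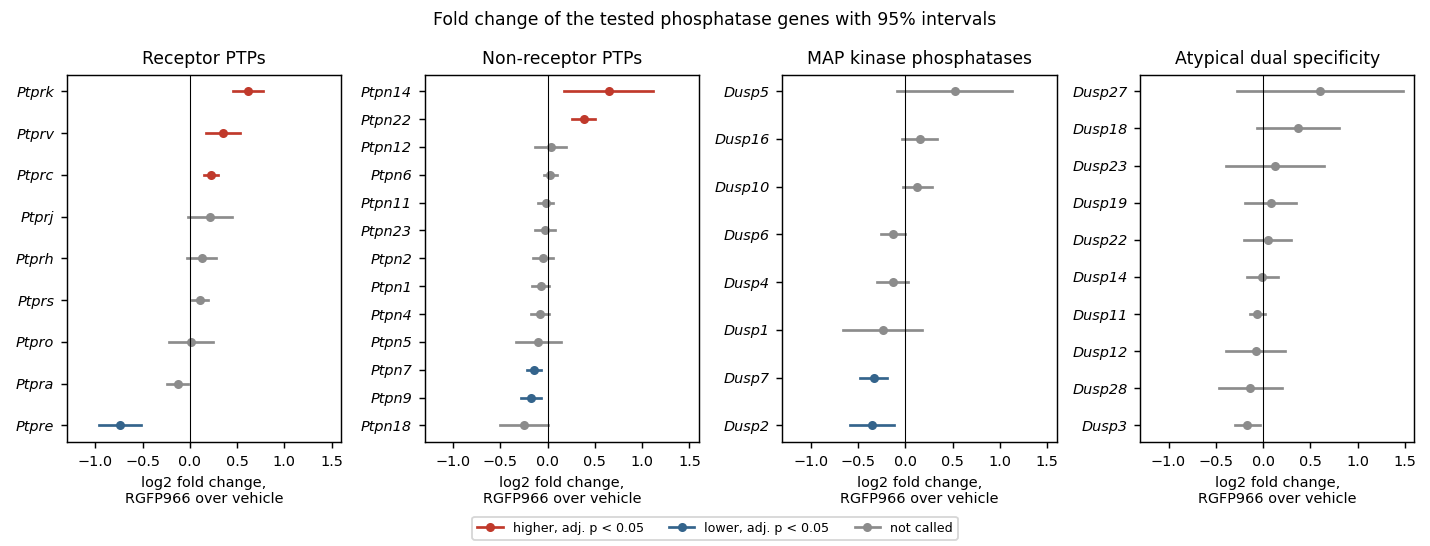
Log2 fold change of RGFP966 over vehicle (horizontal axis) for the 40 tested phosphatase genes, 1 gene a row in 4 classes; points are the fits and lines their 95% intervals. Red marks the 5 genes called higher, blue the 5 called lower and grey those not called, and the lowest point is Ptpre at -0.74.

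Sequence just before the annotated starts is given for the genes with the largest rise and fall among receptor phosphatases that kept their calls in every fit tried, for the most abundant receptor gene, and for the MAP kinase phosphatases that fell. It is RefSeq sequence of build GRCm38.p6, the 150 bases that end 1 base before the start, 5′ to 3′ on the gene's strand. Capitals mark matches on either strand to 6 motifs: TGACGTCA (bound by CREB), TGANTCA (AP-1), CACGTG (the E-box), CCGGAAG (ETS factors), GGGCGG (the GC box) and TATAAA (the TATA box). No match overlapped another. Ptpre has 3 listed starts. A receptor form and a cytosolic form of the enzyme are known to arise from alternative starts, and a count per gene does not tell the forms apart.
Ptpre start 1, chr7:135537674-135537823, plus strand: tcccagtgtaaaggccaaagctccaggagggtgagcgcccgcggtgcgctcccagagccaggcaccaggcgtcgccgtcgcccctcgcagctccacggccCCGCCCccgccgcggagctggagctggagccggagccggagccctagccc
Ptpre start 2, chr7:135593331-135593480, plus strand: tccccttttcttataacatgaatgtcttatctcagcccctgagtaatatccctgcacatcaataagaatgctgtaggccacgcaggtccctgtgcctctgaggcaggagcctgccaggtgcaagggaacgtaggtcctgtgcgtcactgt
Ptpre start 3, chr7:135605678-135605827, plus strand: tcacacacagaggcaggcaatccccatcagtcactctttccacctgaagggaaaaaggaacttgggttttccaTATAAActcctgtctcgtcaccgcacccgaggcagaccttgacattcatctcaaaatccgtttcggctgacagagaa
Ptprk, chr10:28074670-28074819, plus strand: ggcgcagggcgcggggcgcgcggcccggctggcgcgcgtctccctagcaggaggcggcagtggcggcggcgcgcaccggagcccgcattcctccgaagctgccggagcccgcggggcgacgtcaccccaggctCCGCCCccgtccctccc
Ptprc start 1, chr1:138175306-138175455, minus strand: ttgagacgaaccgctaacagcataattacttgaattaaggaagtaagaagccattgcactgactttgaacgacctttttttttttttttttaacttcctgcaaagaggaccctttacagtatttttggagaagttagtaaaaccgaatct
Dusp2, chr2:127336009-127336158, plus strand: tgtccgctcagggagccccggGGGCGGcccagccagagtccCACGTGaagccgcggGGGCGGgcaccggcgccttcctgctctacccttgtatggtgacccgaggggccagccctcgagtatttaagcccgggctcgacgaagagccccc
Dusp7, chr9:106368482-106368631, plus strand: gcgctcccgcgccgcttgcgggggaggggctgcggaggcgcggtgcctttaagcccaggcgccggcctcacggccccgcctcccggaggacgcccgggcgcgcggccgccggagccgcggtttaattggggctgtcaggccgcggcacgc

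The stretches differ in base composition. Guanine and cytosine made up 82% of the Ptprk stretch and 80% of that of Dusp7, with 25 CpG dinucleotides in each, but 34.7% of the Ptprc stretch, with 4. The first Ptpre start had 75.3% and 16 CpGs, while the second had 52% and 3, and the third 49.3% and 5. The table of promoters, 300 bases each, gave 68 windows for 51 of the 64 members, among 32851 windows in all. Median guanine and cytosine was 62% in the members' windows and 52.7% in all windows, and CpG observed over expected 0.716 and 0.384. The motif shares were not adjusted for this. A GC box stood in 55.9% of the members' windows and 35.7% of all windows, and the CREB motif in 7.35% and 1.79%. The 5 member windows with the CREB motif were those of Dusp1, Dusp8, Ptpn11, Ptprs and Ptpru. Dusp8 and Ptpru were too low to test, and Dusp1, Ptpn11 and Ptprs were not called in the fit reported. The AP-1 motif stood in 5.88% and 7.81%, the ETS motif in 8.82% and 8.86%, the E-box in 4.41% and 7.15%, and the TATA box in 4.41% and 13.6%. These are matches of letters, with no measure of binding.

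Levels of different genes were compared per kilobase of annotated exon, taken over all transcripts of a gene. This length was 2802 bases for Ptpn6, 18313 for Ptprc and 8754 for Dusp11, so order and shares depend on the annotation. In CPM without length, Ptprc averaged 755.6 with RGFP966 and 647.5 with vehicle, and Ptpn6 702.4 and 688.1. Per length Ptpn6, which encodes SHP-1, stood far above the rest with 250.7 CPM per kb in RGFP966 and 246 in vehicle libraries. Its mean share was 39.8% and 39.0% of the summed level per length of all 62 phosphatase genes. Next came Ptpn7, whose product HePTP acts on ERK and p38 in blood cells, at 46.8 with RGFP966 and 51.6 with vehicle, then Ptprc at 41.3 and 35.4, and Ptpn11, which encodes SHP-2, at 31.2 and 31.6 CPM per kb. Dusp11, whose product PIR1 is known as an RNA phosphatase, followed in the order at 24.9 and 26.0 CPM per kb. The order of the 11 highest genes was the same in both groups. Further down, Ptpn22 stood 18th of the 64 with RGFP966 and 24th with vehicle, and Dusp7 16th and 12th.

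By class, the receptor phosphatases supplied 13.8% to 14.4% of the summed level per length in RGFP966 libraries and 12.2% to 12.6% in vehicle libraries. MAP kinase phosphatases supplied 8.31% to 8.41% with RGFP966 and 9.02% to 9.30% with vehicle. Non-receptor phosphatases held 67.3% to 68.3% and 68.3% to 68.6%, and atypical dual specificity phosphatases 9.59% to 9.90% and 9.98% to 10.2%. The total over all classes was 628 to 634 CPM per kb with RGFP966 and 621 to 637 with vehicle. The groups thus overlapped in the total, while the shares of receptor, MAP kinase and atypical phosphatases did not overlap. These shares depend on one another and on single genes. Ptprc alone supplied 6.48% to 6.60% with RGFP966 and 5.51% to 5.73% with vehicle, and 0 atypical genes were called. Whether whole classes shifted was not tested.

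**Figure D2:**
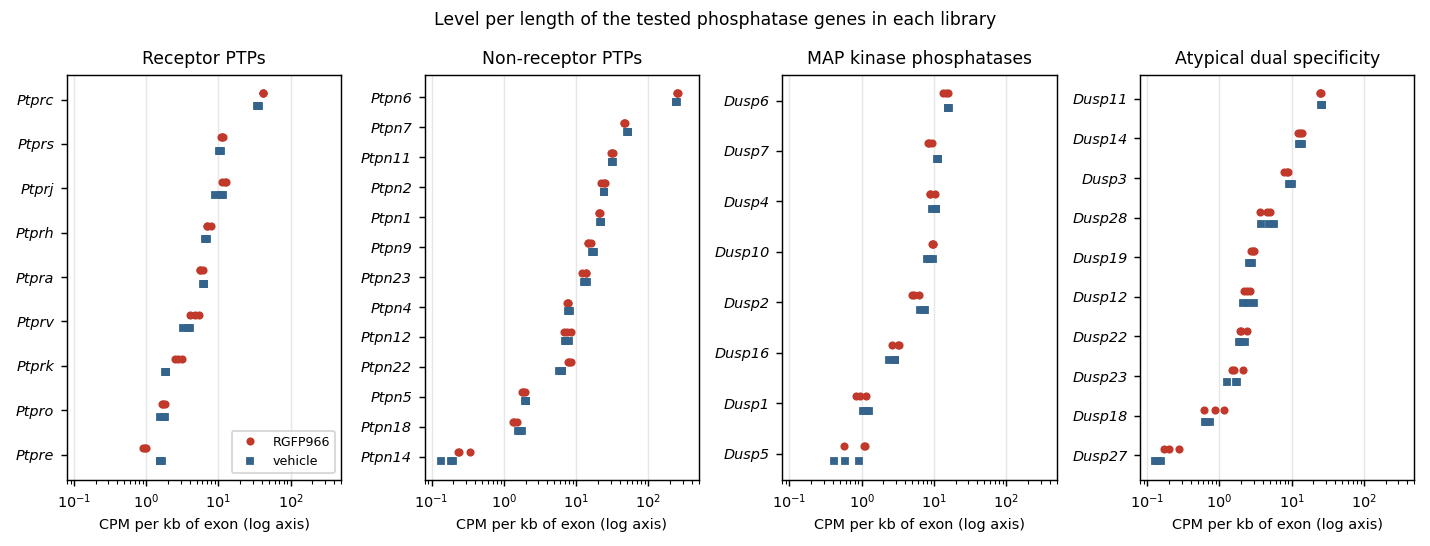
CPM per kilobase of exon (log axis) of the 40 tested phosphatase genes in each of 3 RGFP966 libraries (red circles, upper) and 3 vehicle libraries (blue squares, lower), ordered within 4 classes by the vehicle level. Ptpn6 lies highest, near 250.7 with RGFP966 and 246 with vehicle, and Ptpn14 and Dusp27 lie lowest.

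Among the receptor phosphatases 9 of 21 genes were tested, of which 3 rose, 1 fell and 5 were not called. The share called was 44.4%, against 23.3% of all tested genes, and this difference was not tested. Ptprk encodes a receptor whose extracellular part binds its own kind on neighbouring cells; in the rat, loss of the gene goes with a lack of CD4 T cells. Ptprk (chromosome 10, 28074820 to 28597397) measured 33.4, 42.4 and 37.3 CPM in RGFP966 libraries, against 24.8, 24.7 and 24.2 CPM in vehicle libraries. The vehicle libraries lay within 1 CPM of each other, and the 3 RGFP966 libraries were more spread but all above them. The log2 fold change was 0.62 ± 0.08 (SE, adjusted p = 1.96e-08), a level 53.4% higher and the smallest adjusted p of the set.

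Ptpre, which encodes PTP epsilon, a phosphatase of Src kinases and potassium channels, moved the other way. Ptpre (chromosome 7, 135537481 to 135686293) measured 9.33, 10.0 and 9.92 CPM with RGFP966, against 15.8, 16.9 and 16.1 CPM with vehicle. All RGFP966 libraries were lower, and the libraries of each group lay close together. The log2 fold change was -0.74 ± 0.11 (SE, adjusted p = 9.29e-07), the largest fall of the set at -40.0%. Of its exons 2.05% are overlapped by other genes, the most by 5830432E09Rik, and reads there cannot be assigned without a stated strand setting. Ptpra encodes PTP alpha, the closest relative of PTP epsilon in structure, which activates Src and FYN. It measured 59.6, 66.1 and 59.5 CPM with RGFP966 and 66.8, 67.5 and 67.9 CPM with vehicle. Its groups also did not overlap, but the log2 fold change of -0.13 (95% interval -0.24 to -0.02) was not called (adjusted p = 0.0802), and without RGFP966 library 2 its adjusted p was 0.0262. Whether Ptpre and Ptpra differ in their change was not tested.

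Ptprc (chromosome 1, 138062861 to 138175708) had the highest CPM of the set in RGFP966 libraries and came second to Ptpn6 in vehicle libraries. It measured 752, 755 and 760 CPM with RGFP966, against 642, 635 and 665 CPM with vehicle. The difference was modest in size, 16.7% higher, and the RGFP966 libraries all lay above the vehicle libraries (log2 fold change 0.22 ± 0.04, adjusted p = 2.34e-06). CD45 is made in several forms through alternative exons, which counts per gene do not separate. Ptprcap, the gene of the CD45-associated protein, measured 13.8, 9.69 and 12.4 CPM with RGFP966 and 11.5, 13.2 and 11.9 CPM with vehicle, with overlapping groups (log2 fold change -0.03, 95% interval -0.27 to 0.22, adjusted p = 0.912). All of its exons are overlapped by other genes, the most by Rps6kb2, and 93.9% of its 50-base words occur in other genes, so its count is uncertain.

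Ptprv is the gene of OST-PTP, a receptor phosphatase known from mouse osteoblasts and as a target of p53 in mice. The annotation used here lists it as a processed transcript and not as protein coding. Of its exons 4.94% are overlapped by other genes, the most by the predicted gene Gm10535. Ptprv measured 32.8, 28.2 and 37.4 CPM with RGFP966, against 28.0, 26.5 and 22.8 CPM with vehicle. The groups came within 1 CPM of each other, with every RGFP966 library above every vehicle library. The log2 fold change was 0.35 ± 0.09 (SE, adjusted p = 2.77e-03), and without RGFP966 library 3 it was 0.25 and was not called (adjusted p = 0.0529). Ptprj, the gene of CD148, a counterpart of CD45 in lymphocytes, measured 102, 93.4 and 106 CPM with RGFP966 and 90.3, 74.1 and 95.7 CPM with vehicle. Vehicle library 2 was low and library 3 overlapped the RGFP966 libraries. Its log2 fold change of 0.21 (95% interval -0.02 to 0.45) was not called here (adjusted p = 0.189), but other fits called it: the adjusted p was 4.50e-04 with no filter, 0.0158 in limma-voom, 0.0453 in the DESeq2 Wald test and 2.90e-03 without vehicle library 3. The remaining tested receptor genes, given with their values after these had been seen, were Ptprs, Ptprh and Ptpro. The product of Ptprs binds heparan and chondroitin sulphate proteoglycans. Its log2 fold change was 0.11 (adjusted p = 0.0579), and 6 of the 14 other fits called it, with an adjusted p of 0.0168 with upper-quartile factors, 0.0290 with library totals alone, 0.0495 with DESeq2 size factors, 0.0230 at a mean of at least 5 CPM, 0.0407 with a replicate block and 0.0393 without RGFP966 library 2. Ptprh had a fold change of 0.13 on the log2 scale (adjusted p = 0.256) and Ptpro one of 0.01 (adjusted p = 0.949).

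Among the non-receptor phosphatases 13 of 17 were tested, with 2 rises, 2 falls and 9 not called, a share called of 30.8% against 23.3% of all tested genes. Ptpn22 encodes PEP, which together with the kinase CSK dampens LCK and ZAP-70. Ptpn22 (chromosome 3, 103859795 to 103912247) measured 53.7, 57.8 and 51.9 CPM with RGFP966, against 39.5, 42.9 and 42.9 CPM with vehicle. The groups were clearly apart, and the level was 30.3% higher (log2 fold change 0.38 ± 0.06 SE, adjusted p = 4.18e-06). Ptpn14, which encodes a phosphatase with a FERM domain known to bind the coactivator YAP, was scarce. Ptpn14 (chromosome 1, 189728268 to 189876695) measured 3.09, 3.18 and 4.49 CPM with RGFP966, against 2.48, 2.63 and 1.79 CPM with vehicle. The call (log2 fold change 0.64 ± 0.23, adjusted p = 0.0373) was lost in 6 of 13 other fits, with an adjusted p between 0.0333 and 0.273 over them. Among these were the fits without RGFP966 library 3 (0.273), without vehicle library 1 (0.0530) and without vehicle library 3 (0.179).

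Ptpn7 (chromosome 1, 135132700 to 135145317) measured 283, 284.5 and 289 CPM with RGFP966, against 316, 306 and 322 CPM with vehicle. The fall was small at -9.29%, but the groups did not overlap (log2 fold change -0.14 ± 0.04 SE, adjusted p = 3.73e-03). Ptpn9 encodes PTP-MEG2, an enzyme of secretory vesicles. Ptpn9 (chromosome 9, 56994923 to 57062807) measured 73.6, 68.0 and 67.95 CPM with RGFP966, against 79.2, 76.7 and 81.2 CPM with vehicle. Its log2 fold change was -0.18 ± 0.05 (adjusted p = 7.81e-03), and the call was lost without RGFP966 library 3 (adjusted p = 0.0694) and without vehicle library 3 (adjusted p = 0.0538).

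Ptpn7 and Ptprv are neighbours. They lie head to head on chromosome 1, Ptpn7 on the plus and Ptprv (135108497 to 135132594) on the minus strand, with 105 bases between their annotated starts. In these cells Ptpn7 was lower with RGFP966 and Ptprv higher. The bases between them are shown because both genes are annotated to start at their edges, on the plus strand and from the same build, with the GC box in capitals.
Between Ptprv and Ptpn7, chr1:135132595-135132699: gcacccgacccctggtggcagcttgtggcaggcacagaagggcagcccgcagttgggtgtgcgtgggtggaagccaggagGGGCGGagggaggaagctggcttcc
No other members that were tested lie so close: among the remaining neighbours Ptprr and Ptprb are 590 bases apart and both were too low to test, and Ptprtos lies inside Ptprt, which was too low as well.

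Ptpn6, Ptpn11, Ptpn2 and Ptpn1 were not called. Ptpn6 measured 714, 706 and 687 CPM with RGFP966, against 697, 682 and 685 CPM with vehicle. The groups overlapped, and the 95% interval of the log2 fold change of 0.03 ran from -0.04 to 0.10 (adjusted p = 0.6004). Of its exons 6.96% are overlapped by other genes, the most by the predicted gene Gm20531. Ptpn11 measured 233, 224 and 245 CPM with RGFP966, against 237, 232 and 242 CPM with vehicle, with a log2 fold change of -0.02 (95% interval -0.10 to 0.06, adjusted p = 0.797). Ptpn2, whose product TC-PTP acts on JAK1, JAK3 and STAT proteins, measured 74.7, 78.95 and 68.6 CPM with RGFP966, against 76.4, 77.1 and 76.0 CPM with vehicle. The RGFP966 libraries spread to both sides of the vehicle libraries, with a log2 fold change of -0.05 (95% interval -0.15 to 0.06, adjusted p = 0.560). Ptpn1, which encodes PTP1B, an enzyme of the insulin receptor and JAK2, measured 117, 115 and 113 CPM with RGFP966, against 124, 117 and 122 CPM with vehicle. Its groups did not overlap, yet by less than 1 CPM, and the log2 fold change of -0.07 (95% interval -0.16 to 0.01) was not called (adjusted p = 0.239). The other 5 tested non-receptor genes, Ptpn4, Ptpn5, Ptpn12, Ptpn18 and Ptpn23, were not called and had log2 fold changes between -0.25, for Ptpn18, and 0.03, for Ptpn12.

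**Figure D3:**
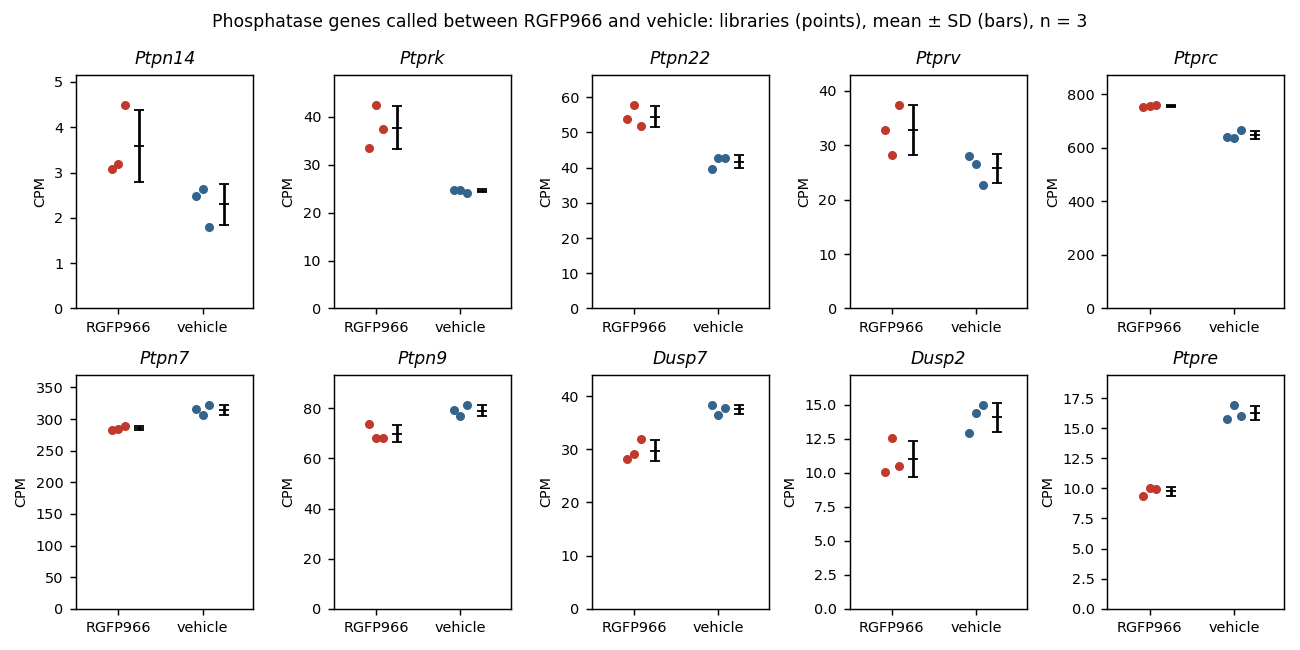
CPM in each library (points) of the 10 phosphatase genes called between RGFP966 (left, red) and vehicle (right, blue), with mean ± SD beside the points, n = 3. Ptpn14, Ptprk, Ptpn22, Ptprv and Ptprc were higher and Ptpn7, Ptpn9, Dusp7, Dusp2 and Ptpre lower with RGFP966, and no pair of groups overlaps.

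Of the 10 MAP kinase phosphatase genes 8 were tested, with 0 rises and 2 falls. The count of rises was also 0 in the DESeq2 Wald test and in limma-voom. In the fit reported 11.4% of all tested genes rose and 11.9% fell, and the share called was 25% in the class and 23.3% over all. At an unadjusted p under 0.05 the class held 3 of the 8 genes, against 33.8% of all genes tested, so neither count sets the class apart. Dusp7 (chromosome 9, 106368632 to 106375724), which encodes a cytoplasmic phosphatase of ERK, measured 28.2, 29.2 and 31.9 CPM with RGFP966, against 38.3, 36.6 and 37.7 CPM with vehicle. The groups were well apart, with a difference of -20.55% (log2 fold change -0.33 ± 0.07 SE, adjusted p = 3.63e-04). Dusp2 encodes PAC-1, a nuclear phosphatase of ERK that lymphocytes induce on activation. Dusp2 (chromosome 2, 127336159 to 127338376) measured 10.1, 12.6 and 10.5 CPM with RGFP966, against 12.91, 14.4 and 14.97 CPM with vehicle. RGFP966 library 2 came within 1 CPM of vehicle library 1. The log2 fold change was -0.35 ± 0.12 (adjusted p = 0.0190). It was not called in the DESeq2 Wald test (adjusted p = 0.0967), or without RGFP966 library 1 (0.112), RGFP966 library 3 (0.0923), vehicle library 2 (0.0564) or vehicle library 3 (0.0928).

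The other MAP kinase phosphatases were not called. Dusp6, the cytoplasmic ERK phosphatase MKP-3 and the most abundant of the class per length, measured 48.9, 45.5 and 41.6 CPM with RGFP966, against 49.6, 50.02 and 48.6 CPM with vehicle. The groups overlapped through RGFP966 library 1 (log2 fold change -0.13, 95% interval -0.25 to -0.00, adjusted p = 0.145). Dusp4, a nuclear enzyme, measured 23.9, 24.1 and 28.4 CPM with RGFP966, against 29.4, 25.5 and 29.2 CPM with vehicle (log2 fold change -0.13, adjusted p = 0.262). Dusp10, which prefers JNK and p38, measured 29.8, 28.9 and 29.2 CPM with RGFP966, against 29.5, 24.6 and 26.5 CPM with vehicle (log2 fold change 0.13, adjusted p = 0.257). Both of these genes had groups that overlapped. Dusp1 and Dusp5, nuclear phosphatases that other cells induce quickly on stimulation, were low. Dusp1 measured 2.79, 3.10 and 3.75 CPM with RGFP966 and 4.17, 3.49 and 3.77 CPM with vehicle, a log2 fold change of -0.24 with a 95% interval from -0.66 to 0.18 (adjusted p = 0.456). Dusp5 measured 2.65, 1.40 and 2.75 CPM with RGFP966 and 2.28, 1.47 and 1.02 CPM with vehicle. Its interval, -0.09 to 1.13 around 0.52, was the widest of the class (adjusted p = 0.234), and 20.5% of its 50-base words also occur in another annotated gene. For Dusp16, a JNK phosphatase named after its values were seen, the log2 fold change was 0.15 (adjusted p = 0.255).

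Of the 14 atypical dual specificity phosphatase genes 10 were tested and 0 were called in the fit reported, in the DESeq2 Wald test or in limma-voom. In the fit reported 23.3% of all tested genes were called. At an unadjusted p under 0.05 there was 1, against 33.8% of all genes tested. It was Dusp3, whose product VHR acts on ERK and JNK. Dusp3 measured 42.1, 37.2 and 40.7 CPM with RGFP966, against 44.3, 42.7 and 48.0 CPM with vehicle. Its groups did not overlap (log2 fold change -0.17 ± 0.07 SE, adjusted p = 0.0569), and its adjusted p was 0.0373 with a replicate block, 0.0492 without RGFP966 library 1 and 0.0317 without vehicle library 2. Dusp11 measured 216, 219 and 220 CPM with RGFP966 and 229, 225 and 229 CPM with vehicle, a difference of -4.17% that was not called (adjusted p = 0.269). Dusp14 and Dusp22, whose products are known to dampen T cell receptor signals, had log2 fold changes of -0.01 (95% interval -0.17 to 0.15, adjusted p = 0.961) and 0.05 (-0.20 to 0.30, adjusted p = 0.831). Dusp3, Dusp14 and Dusp22 were picked out with their values known. For Dusp12, 43.4% of the 50-base words occur in other genes, the most in the predicted gene Gm9929, so its level is uncertain. The fold changes of the other tested genes of the class lay between -0.13, for Dusp28, and 0.60, for Dusp27, with intervals that include 0. The noncoding gene Ptprtos, outside the class, measured 2.48 CPM with RGFP966 and 2.11 CPM with vehicle (adjusted p = 0.572).

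The 22 members that did not pass the filter were 12 receptor, 4 non-receptor, 2 MAP kinase and 4 atypical phosphatase genes. Their summed counts over all 6 libraries ran up to 57, for Ptpn21, and 5 had no count in any library: Dusp9, Dusp21, Ptprm, Ptprr and Ptprz1. A count of 0 allows up to 3 counts, or 0.182 to 0.232 CPM depending on the library. Ptprn followed Ptpn21 with 51 counts and Ptpn3 with 27, while Ptprb, Ptpn20 and Dusp13 each had 1. Ptpn13, Ptprd, Ptprf, Ptprg, Ptprn2, Ptprq, Ptprt, Ptpru, Dusp8, Dusp15 and Dusp26 had 2 to 23 counts each. The scarcest gene that did pass, Dusp27, measured 0.868 ± 0.210 CPM with RGFP966 and 0.571 ± 0.061 CPM with vehicle (SD, n = 3 each).

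The calls differed in how they held when 1 choice of the fit was changed. Ptprk, Ptpre, Ptprc, Ptpn22, Dusp7 and Ptpn7 were called in all 14 other fits. The log2 fold change of Ptprk ran from 0.53 to 0.69 over these fits, that of Ptpre from -0.75 to -0.71, that of Ptprc from 0.21 to 0.25 and that of Ptpn22 from 0.34 to 0.42. Ptprv, Ptpn9, Dusp2 and Ptpn14 each lost the call in at least 1 fit. Members that gained one somewhere were Ptprs, Ptprj, Dusp3 and Ptpra.

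**Figure D4:**
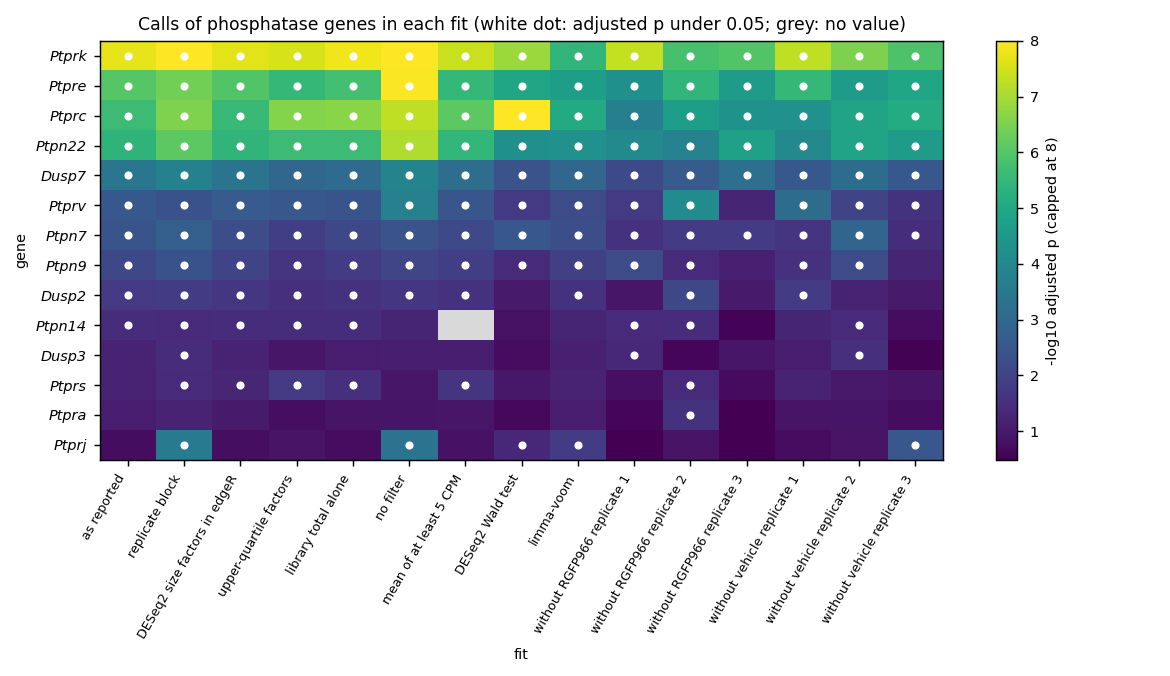
Adjusted p, as -log10 capped at 8 (colour), of the 14 phosphatase genes called in at least 1 fit (rows) in the fit reported and the 14 others (columns). White dots mark an adjusted p under 0.05 and grey a gene left out by that filter; the rows of Ptprk, Ptpre, Ptprc, Ptpn22, Dusp7 and Ptpn7 have a dot in every column.

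Kinases and other genes that work with these phosphatases were taken from lists and read against the same 23.3% of genes called. Of 19 tested Src family kinases and proximal substrates of the T cell receptor, 7 rose and 3 fell (52.6%), with a median log2 fold change of 0.03. Ptk2b, which encodes the kinase PYK2, averaged 27.0 CPM with RGFP966 and 20.1 CPM with vehicle, a rise of 0.43 on the log2 scale (adjusted p = 1.52e-04). Cd5, which encodes an inhibitory surface receptor, rose by 0.28, while the adaptor gene Lat fell by 0.22. Zap70 and Cd247, the kinase and the chain that recruits it, had log2 fold changes of -0.11 (adjusted p = 0.0466) and -0.23 (adjusted p = 0.0418). These 2 calls were lost in 11 and 9 of 14 other fits, where the adjusted p reached 0.267 and 0.268. Lck, Fyn and Csk, the genes of further kinases of this list, were picked out with their values known and were not called. The log2 fold change was -0.07 for Lck (adjusted p = 0.280), 0.03 for Fyn (0.695) and 0.00 for Csk (0.963).

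Among MAP kinase cascade genes there were 2 rises and 1 fall among 19 tested (15.8%, median 0.01). Mapk3, which encodes ERK1, rose by 0.19 (adjusted p = 0.0119), and Map2k6, an activator of p38, by 0.41 (adjusted p = 0.0104). Map2k7, an activator of JNK, fell by 0.21 (adjusted p = 0.0133). These 3 calls were lost in the DESeq2 Wald test (adjusted p = 0.0546 for Mapk3, 0.0632 for Map2k6 and 0.0679 for Map2k7). They were also lost for Mapk3 without RGFP966 library 2 (0.0523), for Map2k6 without vehicle library 2 (0.117), and for Map2k7 without RGFP966 library 3 (0.0909) or vehicle library 1 (0.0845). Mapk14, the gene of p38 alpha, was picked out with its values known and was not called (log2 fold change 0.01, adjusted p = 0.871).

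Genes that ERK signalling is known to induce went in both directions, with 3 rises and 3 falls among 13 tested (46.2%, median -0.07). Ier3, an immediate early gene, averaged 11.5 CPM with RGFP966 and 7.41 CPM with vehicle (log2 fold change 0.64 ± 0.13 SE, adjusted p = 1.61e-04), and Myc rose by 0.18 (adjusted p = 3.55e-04). Spry4, a feedback inhibitor of the cascade, averaged 12.95 CPM with RGFP966 and 17.6 CPM with vehicle (-0.44 ± 0.11, adjusted p = 1.23e-03). The ETS factor gene Etv4 fell by 0.74 (adjusted p = 6.24e-04) and Junb by 0.27 (adjusted p = 6.85e-04). The rise of Etv5, at 0.14 (adjusted p = 0.0322), was lost in 7 of 14 other fits, among them those without any 1 RGFP966 library and without vehicle library 2 or 3, with an adjusted p up to 0.129.

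Among JAK kinases, STAT factors and SOCS inhibitors 3 rose and 2 fell of 17 tested (29.4%, median 0.06). Socs1, whose product blocks JAK kinases, averaged 25.1 CPM with RGFP966 and 18.6 CPM with vehicle (log2 fold change 0.43 ± 0.09 SE, adjusted p = 2.57e-04), and Socs6 rose by 0.20. Socs3 averaged 1.39 CPM with RGFP966 and 0.530 CPM with vehicle, and its call (1.37, adjusted p = 0.0115) was lost without RGFP966 library 2 (0.144) and without vehicle library 3 (0.0598). Stat5a fell by 0.27 (adjusted p = 2.18e-04) and Socs7 by 0.32 (adjusted p = 7.09e-06).

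Phosphatases of related families with other symbols gave 5 rises and 2 falls among 24 tested (29.2%, median 0.02). Ssh2, a phosphatase of cofilin, averaged 105 CPM with RGFP966 and 94.0 CPM with vehicle, a rise of 0.17 on the log2 scale (adjusted p = 7.14e-03; 0.0651 without vehicle library 2). Eya2 was scarce and averaged 2.87 CPM with RGFP966 and 1.58 CPM with vehicle, a rise of 0.86 on the log2 scale (adjusted p = 0.0132). Its adjusted p was 0.0535 without vehicle library 1 and 0.0672 in the DESeq2 Wald test. Mtmr2, a phosphatase of phosphoinositides, fell by 0.17 (adjusted p = 5.14e-03; 0.0564 without vehicle library 3). Cdc14a measured -0.20 (adjusted p = 0.0482), a call that only the fit with the replicate block among 14 others kept, with an adjusted p up to 0.191.

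**Figure D5:**
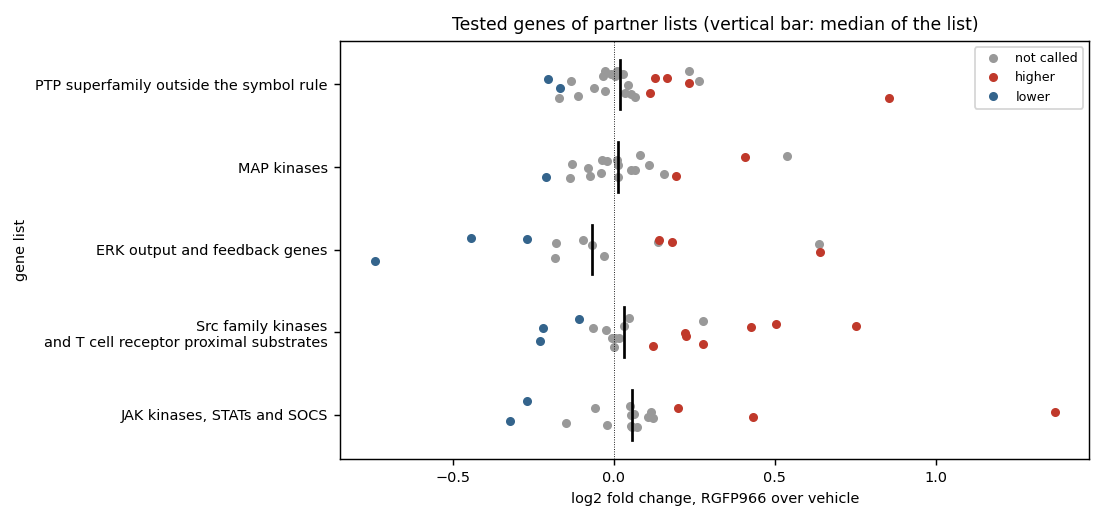
Log2 fold change of RGFP966 over vehicle (horizontal axis) of the tested genes in 5 lists (rows), 1 point a gene, with red for called higher, blue for called lower and grey for not called; the vertical bar is the median of the list, between -0.07 and 0.06. The Src family and T cell receptor list has 10 of 19 genes coloured and the MAP kinase list 3 of 19.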

How the data were processed

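The authors deposited 1 table of raw read counts per Ensembl mouse gene, with a column for each of 6 libraries. The submitters' processing notes list HTSeq 0.6.0, HISAT2 2.1.0, Bowtie2 2.2.3, TopHat2 and CASAVA, and the build mm10. What each tool did, the gene annotation and whether counting used strand: not given in the sources used here. Symbols (51633 of 51912 IDs) came from a table of gene names, and positions and exon lengths from GENCODE M21 on GRCm38, the assembly of mm10. Shared sequence is the percentage of a gene's 50-base transcript words found in other genes.

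All 6 libraries entered one edgeR 4.0.16 model (R 4.3.3) with a single group factor, after filterByExpr and TMM scaling, tested by robust quasi-likelihood. SE was taken as |log2 fold change| divided by the root of F. Named were the called members, 17 members listed whatever their result, the 5 most abundant per length in vehicle, and from each partner list the 3 called genes of smallest adjusted p in each direction; some genes that this takes are not reported here. Members and lists were chosen with earlier results of these data known. Alternatives were a replicate block, 3 other scalings, 2 other filters, DESeq2 1.42.0, limma-voom (limma 3.58.1) and leaving out each library. Fits were tested on simulated data. The variance between libraries of a group was 2.22 to 3.53 times that from counting alone (chi-square over its degrees of freedom), more than copies would show. Floors from counts cover counting error only. Intervals of the log2 fold change rest on the quasi-likelihood fit and so include the spread between libraries of a group.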

Additional observations from a re-analysis of the deposited data

How the results depend on the processing

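Calls of the members numbered 5 higher and 5 lower, and 3 to 6 higher and 3 to 6 lower when 1 library was left out, with the lowest counts without RGFP966 library 3 (3 and 3) and without vehicle library 3 (5 and 3). All genes called higher numbered 1543 and fell to 1011 in the DESeq2 Wald test, and ran from 1238 to 1385 with 1 library left out; those lower, 1602, ran from 1116 to 1484. Partner-list genes numbered 20 higher and 11 lower, against 11 and 7 in the DESeq2 Wald test, and 14 to 18 and 7 to 11 with 1 library left out. The causes were not tested. Correlations between libraries of the same replicate number were -0.02, 0.01 and 0.01 over all tested genes. They cannot settle whether the numbers pair the libraries, because effects on few genes would hardly change them. With a replicate block 7 members were higher and 6 lower, and 1667 and 1764 of all genes. Ptprj then had an adjusted p of 2.68e-04. Counting phosphatases alone, without Ptprcap and Ptprtos, left 5 and 5. No named member that was called changed sign in any fit. The precision for tested members under 5 CPM (Ptpn14, Dusp1, Dusp5, Dusp18, Dusp23, Dusp27, Ptprtos) and for Eya2 and Socs3 was limited by their counts.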
